A study of Homo sapiens with 12 samples.

Results

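The sestrins SESN1, SESN2 and SESN3 were followed in messenger RNA from A549, a lung adenocarcinoma line, and BEAS-2B (B2B), a line of immortalised bronchial epithelial cells. The 3 genes were matched by symbol among 26485 symbols listed in every library. All 3 passed the filter on low counts, which left 16373 genes tested. They were chosen on measured values of these data, namely the height of SESN3 in B2B cells given SR11302 and of SESN1 and SESN2 in A549 cells given an inhibitor, so the comparisons of those groups with their controls, and the comparison of the inhibitors in B2B, are described here without a test. The same holds where the controls of those contrasts bear on the value: the untreated lines against each other, and SESN3 in B2B with SP600125. It also holds for SESN1 and SESN2 between the inhibitors in A549, since those libraries entered their choice. The study holds 12 libraries in 6 groups of 2: A549_NT and B2B_NT without treatment (NT), A549_SR11302 and B2B_SR11302 after 72 h in 10 µM SR11302, and A549_SP600125 and B2B_SP600125 after 72 h in 50 µM SP600125. SR11302 is a retinoid-related inhibitor of the transcription factor AP-1, and SP600125 inhibits the Jun N-terminal kinases (JNK) that phosphorylate the AP-1 subunit Jun. The doses differ by inhibitor. The sample labels speak of no treatment and the study's legends of the solvent DMSO, so it is not settled here whether control cells received solvent. All groups come from these 2 lines, each a single model of its tissue, and the labels do not say whether the 2 libraries of a group came from separate cultures. The p-values therefore measure the spread between libraries, which may be technical.

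Sestrins are stress-inducible proteins that are neither kinases nor transcription factors. They bind GATOR2, a complex that keeps the lysosomal nutrient sensor mTORC1 switched on by restraining its inhibitor GATOR1, and so restrain mTORC1 when amino acids are short; SESN2 is a leucine sensor. They also act with AMP-activated kinase (AMPK) and promote the removal of KEAP1, the repressor of the antioxidant factor NRF2. SESN2 is known as a target of NRF2 and of ATF4 in the integrated stress response, and SESN3 as a target of FOXO factors.

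Between 13969766 and 24917854 reads per library fell in genes. The share of reads in no annotated gene was 23.8 to 25.9% in the 4 untreated libraries and 14.6 to 20.1% in the 8 treated ones, without overlap, so this share and treatment cannot be told apart in any comparison with a control. The 6 genes high in A549 against B2B, a list drawn from earlier results of these data, summed to 3.45 CPM (counts brought to a common library size after TMM scaling) in B2B_NT replicate 1 and 88.0 CPM in replicate 2, against 14950 to 15570 CPM in A549_NT. The 6 genes high in B2B summed to 12.4 and 22.7 CPM in the A549_NT libraries, against 3811 to 3946 CPM in B2B_NT. The 5 epithelial markers summed to 11650 to 13400 CPM in A549_NT and 781 to 870 CPM in B2B_NT, whereas 4 fibroblast or mesenchymal markers reached 5988 to 6135 CPM in B2B_NT. The alveolar markers stayed at 1.38 to 1.45 CPM in A549_NT. The epithelial sum was 5379 to 6413 CPM in A549_SR11302 and 5075 to 5092 CPM in A549_SP600125, and 543 to 633 and 400.3 to 436 CPM in the corresponding B2B groups, and the mesenchymal sum was 4726 to 4971 CPM in B2B_SR11302 and 1196 to 1380 CPM in B2B_SP600125. The 6 genes high in B2B summed to 2685 to 2822 and 1109 to 1299 CPM in those groups. The epithelial sum was mostly KRT8 and KRT18. In A549_SP600125 CDH1 alone of the epithelial markers rose, from 121.9 and 128.2 CPM in A549_NT to 437.9 and 380.5 CPM. Most of the mesenchymal fall in B2B_SP600125 was in COL1A1, from 4296 and 4391 CPM in B2B_NT to 372.1 and 382.5 CPM. PDGFRB did not fall there (62.9 and 61.2 to 64.1 and 71.7 CPM). In A549_SP600125, 3 endothelial markers summed to 13.9 to 15.0 CPM (0.222 to 0.266 in A549_NT) and 4 immune markers to 3.93 to 4.02 CPM (46.1 to 50.3 in A549_NT). Nearly all of the immune sum in A549_NT was CD68, at 47.9 and 43.8 CPM, against 3.35 and 3.52 CPM in A549_SP600125. CD3E had no reads in any library. The part of these shifts in the sestrin values was not tested. In bulk RNA, fewer expressing cells and less RNA per cell cannot be told apart.

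SESN1 lies on chr6:108984309-109094846 (hg38, minus strand), SESN2 on chr1:28259518-28282491 (plus strand) and SESN3 on chr11:95165513-95232541 (minus strand). Each has a canonical transcript of 10 exons, but the genes span 110.5, 23.0 and 67.0 kb. An antisense long noncoding RNA, LNCRNA-IUR, overlaps exons of SESN3, and an unnamed antisense transcript overlaps an exon of SESN1. The strand setting of the counting is not given in the sources used here, so reads from these transcripts and from the sestrins could not be told apart. The RefSeq sequences upstream of the sestrin starts (GRCh38.p14, 250 bases, 5′ to 3′ along the gene) are shown because SESN1 and SESN2 were high in the same groups while SESN3 had another order, and because the cells had received AP-1 and JNK inhibitors. Capitals mark a match to the antioxidant element core.
SESN1, chr6:109009553-109009802, minus strand: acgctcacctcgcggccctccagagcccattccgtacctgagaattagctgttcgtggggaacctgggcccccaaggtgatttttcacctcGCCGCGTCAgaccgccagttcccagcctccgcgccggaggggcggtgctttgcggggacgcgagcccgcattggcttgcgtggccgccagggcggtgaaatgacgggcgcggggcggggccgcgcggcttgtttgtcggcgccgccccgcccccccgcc
SESN2, chr1:28259268-28259517, plus strand: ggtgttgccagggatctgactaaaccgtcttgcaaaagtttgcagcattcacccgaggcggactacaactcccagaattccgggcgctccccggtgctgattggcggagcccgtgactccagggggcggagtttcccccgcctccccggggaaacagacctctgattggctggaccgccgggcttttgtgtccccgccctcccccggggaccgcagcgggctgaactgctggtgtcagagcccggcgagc
SESN3, chr11:95232476-95232725, minus strand: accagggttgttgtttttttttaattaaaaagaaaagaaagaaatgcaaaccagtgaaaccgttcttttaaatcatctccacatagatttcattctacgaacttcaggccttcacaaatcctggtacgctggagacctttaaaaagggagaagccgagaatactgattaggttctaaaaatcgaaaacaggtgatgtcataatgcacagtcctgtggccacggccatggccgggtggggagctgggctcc
RefSeq gives 3 starts for SESN1, so 5 windows were searched on both strands for the AP-1 site TGANTCA, the cyclic AMP response element TGACGTCA, the C/EBP-ATF element TGATGNAA, the FOXO site TGTTTAC and the antioxidant element core TGACNNNGC. Of these, only the last matched. The SESN1 window shown holds it 159 to 151 bases before its start, on the opposite strand, and 10.9% of 35116 human promoter windows of this length contain it. The AP-1 site occurs in 6.57% of all windows, the cyclic AMP response element in 1.65%, the C/EBP-ATF element in 3.14% and the FOXO site in 2.98%. These letters were not found in the windows of SESN2 and SESN3, which says nothing of sites elsewhere. The SESN3 window is poorer in G and C, at 42.8%, than those of SESN2 (65.6%) and SESN1 (60.4, 71.6 and 74.4%), and lies below the lower quartile of 46.4% over all windows. The deposited counts are per gene and do not separate the SESN1 starts.

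Without treatment SESN3 was higher in A549 and SESN1 and SESN2 were higher in B2B, in every library. No p-value is given, since the untreated libraries were the controls of the contrasts that chose the genes. The share of all genes whose libraries separate in this way was not counted. SESN3, known as a target of FOXO factors, was nearly silent in B2B_NT, with 8 and 12 reads or 0.383 and 0.489 CPM. In A549_NT it reached 72 and 96 reads, or 4.0 and 5.1 CPM. The libraries did not overlap, and the log2 difference, A549 minus B2B, was 3.35 ± 0.57 (SE from edgeR). Without B2B_NT replicate 2, the library with the higher A549 marker sum, the difference was 3.55. Without the second library of both lines it was 3.36, and the differences were -0.99 for SESN2 and -0.72 for SESN1. SESN2, the leucine sensor, was at 9.17 and 8.55 CPM in A549_NT and at 18.2 and 19.5 CPM in B2B_NT. The log2 difference was -1.09 ± 0.15, with no overlap. SESN1 was at 6.67 and 7.70 CPM in A549_NT against 10.97 and 9.77 CPM in B2B_NT. This smaller log2 difference of -0.53 ± 0.16 was -0.43 without A549_NT replicate 1 and -0.45 without B2B_NT replicate 1.

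**Figure D1:**
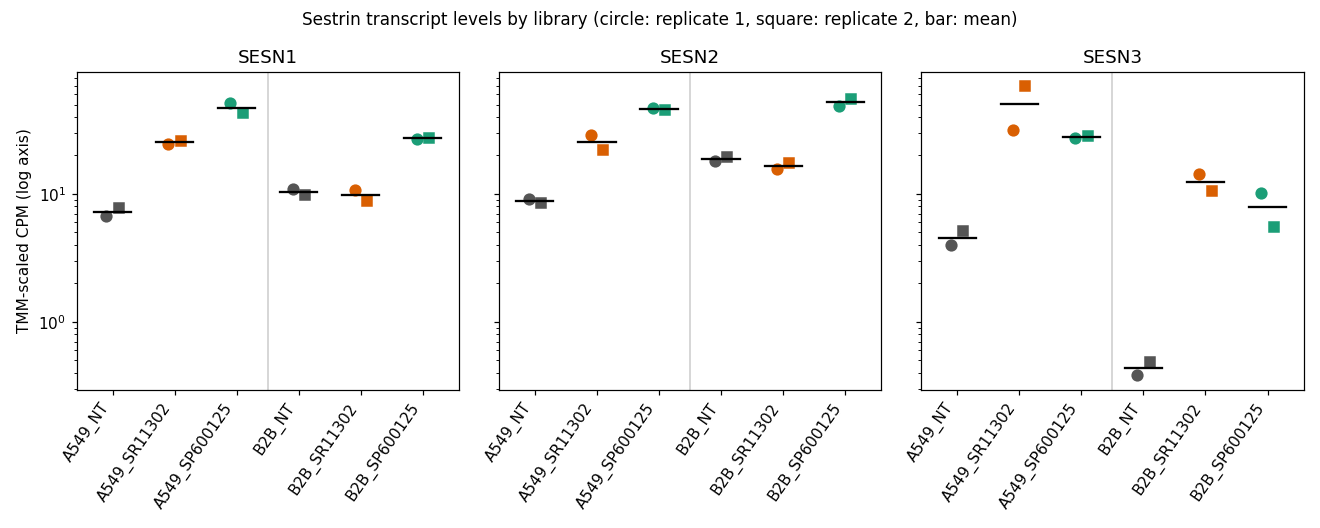
TMM-scaled CPM (log axis) of SESN1, SESN2 and SESN3 in each of the 12 libraries, by group; circles are replicate 1, squares replicate 2 and bars the mean of 2. SESN3 sits below 0.5 CPM in both B2B_NT libraries and above 5 CPM in all 4 treated B2B libraries, while SESN1 and SESN2 in B2B_SR11302 lie near their B2B_NT levels.

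In B2B cells given SP600125, SESN1 and SESN2 rose, and SESN3 stood above its control by a larger fold. Calls needed an adjusted p under 0.05 and a log2 fold change of at least 0.5 in size. SESN1 stood at 26.8 and 27.5 CPM in B2B_SP600125, above both control libraries, and rose by 1.39 ± 0.15 on the log2 scale, or 2.62-fold (edgeR's quasi-likelihood test, Benjamini-Hochberg adjusted p = 4.3e-06). SESN2 reached 48.8 and 55.4 CPM, its highest level in any group, and rose by 1.46 ± 0.14, or 2.76-fold (edgeR, adjusted p = 2.22e-06). SESN1 and SESN2 were chosen for their height in A549. The family was chosen together, however, and B2B_NT was the control of the contrast that chose SESN3. The p-values of SESN1 and SESN2 are therefore not fully independent of the choice. SESN3 reached 10.2 and 5.54 CPM from 197 and 91 reads. The treated libraries were far apart (7.89 ± 3.32 CPM, SD, n = 2), yet both lay above the controls. SESN3 was 4.16 ± 0.53 above B2B_NT on the log2 scale, a value given without a test because the same 8 and 12 control reads entered its choice. Without B2B_NT replicate 2 the differences were 4.35 for SESN3, 1.51 for SESN2 and 1.31 for SESN1. Of all genes tested, 21.2% were called higher and 22.6% lower in this comparison.

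Under SR11302 the B2B sestrins parted. SESN3, whose level in this group was a reason for choosing the family, had 351 and 186 reads, or 14.4 and 10.5 CPM. It stood 4.81 ± 0.50 above B2B_NT on the log2 scale, or 28.1-fold, and ranked 28 of the 16373 genes tested by rise. Without B2B_NT replicate 2 the value was 5.01. SESN1 was at 10.7 and 8.85 CPM, within and just below the range of its controls, with a log2 fold change of -0.08 ± 0.15. The sign of that value was not stable: it was 0.01 without B2B_NT replicate 1, 0.06 without B2B_SR11302 replicate 2 and 0.0016 with library size as the only scaling. SESN2 was at 15.6 and 17.5 CPM, both under the control libraries, with a log2 fold change of -0.19 ± 0.14. The comparison of SR11302 with no treatment called 11.4% of all genes higher and 11.1% lower in B2B. Set side by side, B2B_SP600125 was above B2B_SR11302 by 1.47 ± 0.15 for SESN1 and 1.66 ± 0.14 for SESN2, and below it by a log2 difference of -0.65 ± 0.34 for SESN3.

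In A549 cells all 3 sestrins were higher with either inhibitor than without, in every library. How many of all genes separate in this way was not counted. SESN1 was at 24.7 and 25.9 CPM in A549_SR11302 and at 51.0 and 42.9 CPM in A549_SP600125. These levels lay 1.81 ± 0.15 and 2.7 ± 0.15 above A549_NT on the log2 scale. SESN2 was at 28.7 and 22.1 CPM with SR11302 and at 47.1 and 45.1 CPM with SP600125, or 1.52 ± 0.15 and 2.38 ± 0.15 above the control. SESN1 and SESN2 thus kept the order NT, SR11302, SP600125. SESN3 had the reverse order of the inhibitors, at 31.4 and 69.4 CPM with SR11302 and at 27.3 and 28.4 CPM with SP600125, which was 3.47 ± 0.35 and 2.61 ± 0.36 above A549_NT. The SR11302 libraries were far apart, with 647 and 1658 reads, and leaving out replicate 2 brought the SESN3 value from 3.47 to 2.81. Without A549_NT replicate 2 the values with SR11302 and SP600125 were 1.92 and 2.81 for SESN1, 1.47 and 2.33 for SESN2, and 3.66 and 2.8 for SESN3. Both comparisons share the A549_NT libraries. Of all genes tested, 14.8% were called higher and 13% lower with SR11302, and 23.9% higher and 25% lower with SP600125.

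The direct comparison of the inhibitors in A549 was not a contrast used in the choice of the genes, although its libraries were among those whose height over A549_NT chose SESN1 and SESN2. For SESN1 and SESN2 it is therefore described without a p-value. It found SESN1 and SESN2 higher and SESN3 lower with SP600125. SESN1 exceeded its SR11302 level by 0.89 ± 0.14 on the log2 scale, or 1.85-fold. SESN2 was higher by 0.86 ± 0.14, or 1.81-fold. SESN3 was lower with SP600125 by a log2 fold change of -0.86 ± 0.30 (edgeR, adjusted p = 0.0325, 95% interval -1.51 to -0.21). That last call rested on A549_SR11302 replicate 2: without it the difference was -0.20 (adjusted p = 0.478, edgeR), and it also missed the threshold without A549_SP600125 replicate 1 (-0.83) or replicate 2 (-0.89). Of all genes tested, 16.6% were called higher and 20.5% lower with SP600125. The inhibitors were given at different doses, so these differences hold for 50 µM of the one against 10 µM of the other.

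**Figure D2:**
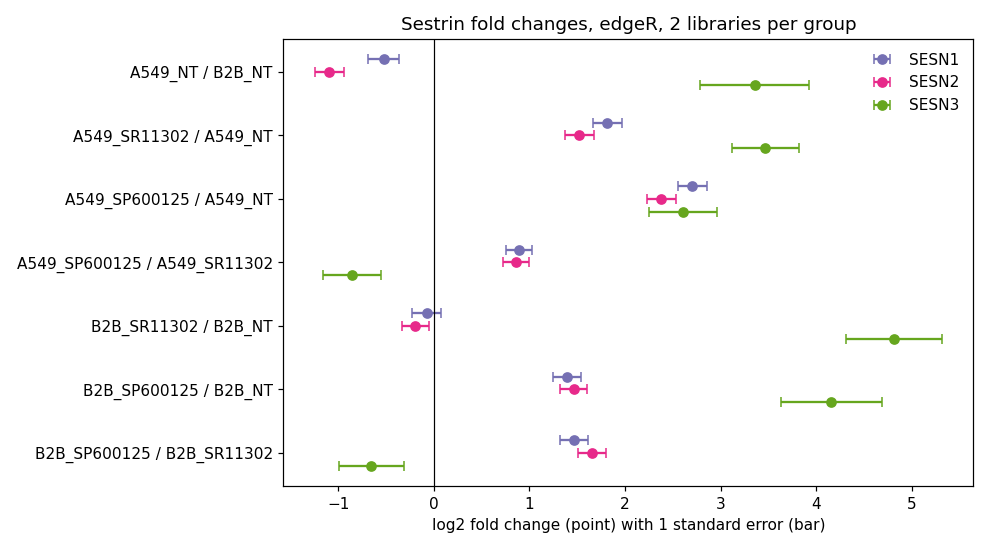
Log2 fold change of each sestrin (points, with bars of 1 standard error from edgeR) in 7 comparisons, each written as the numerator group over the denominator group. SESN1 and SESN2 lie on the same side of 0 in every comparison, from -1.09 to 2.7 (SESN1 in B2B_SR11302 over B2B_NT changes sign with some alternatives), whereas SESN3 lies above them in each comparison of an inhibitor with B2B_NT and below them where SP600125 is set against SR11302.

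The effect of SR11302 on the control level was larger in A549 than in B2B by 1.89 for SESN1 and 1.71 for SESN2, and smaller by a log2 difference of -1.34 for SESN3. For SP600125 the differences were 1.31, 0.92 and -1.55. Since the choice of the genes used these contrasts, the differences were not tested. SESN3 started in B2B from 8 and 12 reads, so its folds there rest on small control counts: the exact Poisson 95% intervals of those counts are 3.45 to 15.8 and 6.20 to 21.0 reads and cover counting error only.

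Ordered by mean level over the 6 groups, each sestrin had a ladder of its own. The share of all genes whose neighbouring groups do not overlap was not counted. SESN1 ran from 7.18 ± 0.73 CPM (SD, n = 2) in A549_NT through B2B_SR11302 (9.79 ± 1.33), B2B_NT (10.4 ± 0.85), A549_SR11302 (25.3 ± 0.81) and B2B_SP600125 (27.2 ± 0.49) to A549_SP600125 (46.9 ± 5.72). Its only neighbours whose libraries overlapped were B2B_SR11302 and B2B_NT. SESN2 ran from 8.86 ± 0.44 CPM in A549_NT through B2B_SR11302 (16.6 ± 1.37), B2B_NT (18.9 ± 0.89), A549_SR11302 (25.4 ± 4.68) and A549_SP600125 (46.1 ± 1.42) to B2B_SP600125 (52.1 ± 4.69), and no neighbours overlapped. SESN3 ran from 0.436 ± 0.0745 CPM in B2B_NT through A549_NT (4.55 ± 0.77), B2B_SP600125 (7.89 ± 3.32), B2B_SR11302 (12.5 ± 2.79) and A549_SP600125 (27.8 ± 0.80) to A549_SR11302 (50.4 ± 26.8). No neighbours overlapped for SESN3 either, although the gaps between B2B_SP600125 and B2B_SR11302 and between the treated A549 groups were narrower than the spread within B2B_SP600125 and A549_SR11302.

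Levels per kilobase of exon set the genes against each other only as far as the lengths fit the exons that were counted. The lengths came from GENCODE v44, while the annotation behind the counts is not given. On this scale SESN2 had the highest mean of the sestrins in all 6 groups. In A549_SR11302 replicate 2, however, it stood at 6.39 CPM per kb against 6.56 for SESN3. The mean of SESN2 ran from 2.56 CPM per kb in A549_NT to 15.0 CPM per kb in B2B_SP600125. SESN1 came next in every group but A549_SR11302, where SESN3, at 4.76 ± 2.54 CPM per kb, stood above SESN1 at 3.48 ± 0.11. SESN3 supplied 0.595 ± 0.0891% of the summed sestrin transcript per length in B2B_NT, 3.87 ± 1.83% in B2B_SP600125 and 16.1 ± 3.50% in B2B_SR11302. In A549 its share was 10.8 ± 1.72% without treatment, 11.8 ± 0.93% with SP600125 and 30.0 ± 13.8% with SR11302. The summed level was 3.98 ± 0.05 CPM per kb in A549_NT, 15.6 ± 1.30 in A549_SR11302 and 22.4 ± 1.12 in A549_SP600125. In B2B it was 6.92 ± 0.15, 7.30 ± 0.05 and 19.5 ± 1.11 CPM per kb in the same order, so that the family sum under SR11302 lay close to the control while its makeup did not. The order of the genes was the same in all 6 groups when the longest coding transcript replaced the merged exons. That length came from GENCODE v44 as well. All errors here are SD of 2 libraries.

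**Figure D3:**
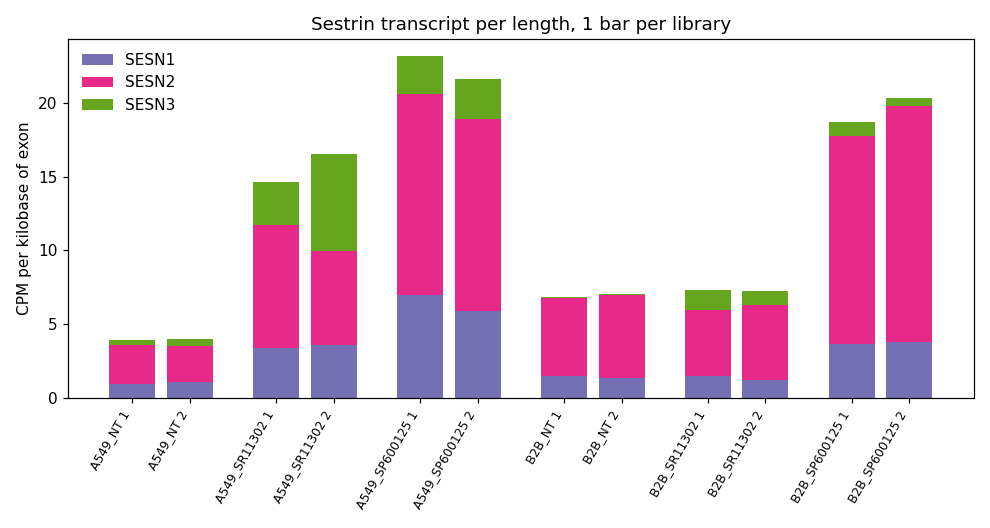
CPM per kilobase of exon of SESN1, SESN2 and SESN3 stacked for each of the 12 libraries (linear axis from 0, 1 bar per library). SESN2 makes up most of every bar except in A549_SR11302 replicate 2, and the 2 B2B_SR11302 bars are about as tall as the B2B_NT bars but hold more SESN3.

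Of 9 upstream regulators of the sestrins, none was called in all 4 comparisons of an inhibitor with its control. FOXO1, a factor known to drive SESN3, rose from 13.1 to 18.9 CPM with SR11302 and to 26.6 CPM with SP600125 in A549 (log2 fold changes 0.54 ± 0.18 and 1.02 ± 0.18; edgeR, adjusted p = 0.0302 and 0.000258). In B2B it rose from 7.80 to 33.9 CPM with SP600125 (2.11 ± 0.18, edgeR, adjusted p = 7.96e-07). With SR11302 in B2B it was 1.34-fold higher and not called (edgeR, adjusted p = 0.11). FOXO4 rose in B2B with SR11302 (0.95 ± 0.26) and SP600125 (1.5 ± 0.26) and in A549 with SP600125 (1.74 ± 0.30), while FOXO3 fell in B2B with both (-0.72 ± 0.14 and -0.98 ± 0.14). ATF4, which drives SESN2 in the integrated stress response, was called in B2B with SP600125 (219 to 386 CPM, 0.82 ± 0.11) and between the inhibitors in A549 (230 to 333 CPM, 0.54 ± 0.11). In A549 with SR11302 ATF4 was 0.957-fold its control (edgeR, adjusted p = 0.683). With SP600125 it was 1.39-fold its control (edgeR, adjusted p = 0.00211), under the fold minimum. SESN2 stood 2.87-fold and 5.2-fold above its control in these groups. These are messenger RNA levels, and whether a factor was active or acted on a sestrin was not tested. EIF2AK4 (GCN2), the kinase that senses uncharged tRNA, and HIF1A were called higher in A549 with each inhibitor, by 0.51 to 0.87. In B2B, neither was called. TP63 was called higher in A549 with SP600125 but lay under 4 CPM, and TP73 and EIF2AK3 were called in no comparison of an inhibitor.

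The other targets of these regulators were counted from lists compiled from general knowledge, and each count is to be read against the share of all genes called: 14.8% higher and 13% lower in A549 with SR11302, 23.9% and 25% in A549 with SP600125, 11.4% and 11.1% in B2B with SR11302, and 21.2% and 22.6% in B2B with SP600125. Among 29 tested targets of the integrated stress response, 21 were higher and 1 lower in B2B with SP600125, and 19 higher and 4 lower in A549 (medians 0.83 and 0.86 on the log2 scale, against 0.01 and 0.02 over all genes). With SR11302 the counts were 7 higher and 3 lower in A549 (median 0.34, against 0.02) and 2 higher and 7 lower in B2B (-0.11, against 0.01). Between the inhibitors in A549, 17 were higher and 1 lower with SP600125. NUPR1, a stress-induced chromatin protein, rose from 2.15 to 26.6 CPM with SR11302 and to 75.1 CPM with SP600125 in A549, an order it shares with SESN2. PPP1R15A, of the same list, went the other way with SR11302 in A549, from 229 to 63.1 CPM. ASNS, the asparagine synthetase that ATF4 induces, rose from 53.6 to 294 CPM in A549 with SP600125 and fell from 40.9 to 18.6 CPM in B2B with SR11302. With genes kept only at 1 CPM or more in all 12 libraries, the 7 in A549 with SR11302 became 4. Over all genes, calls with SR11302 depended on single libraries in both lines. In B2B, fewer genes were called higher and lower without B2B_NT replicate 1, B2B_NT replicate 2 or B2B_SR11302 replicate 2. In A549, leaving out either A549_NT library lowered both counts, and leaving out A549_SR11302 replicate 1 raised both. With library size as the only scaling, 66.3% of calls in A549 with SR11302 were higher (53.2% with TMM), 61.1% in B2B with SR11302 (50.7%) and 59.1% in B2B with SP600125 (48.5%).

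Of 19 tested FOXO targets, 10 were higher and 1 lower in A549 with SR11302, 13 and 1 in A549 with SP600125, 4 and 2 in B2B with SR11302, and 11 and 1 in B2B with SP600125. Of all genes, 14.8, 23.9, 11.4 and 21.2% were higher in these comparisons. The 4 in B2B with SR11302, the group in which SESN3 was highest in that line, were ERBB3 (13.3 to 46.4 CPM), the autophagy gene GABARAPL1 (36.5 to 88.3 CPM), the mitophagy kinase PINK1 (15.7 to 31.7 CPM) and KLF15 (1.49 to 2.86 CPM). They became 7 of 20 without A549_SR11302 replicate 1 or with no filter on low counts. CCNG2, a FOXO target that slows the cell cycle, rose in A549 from 3.08 to 12.2 CPM with SR11302 and to 29.2 CPM with SP600125, whereas the mean of SESN3 was higher with SR11302.

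**Figure D4:**
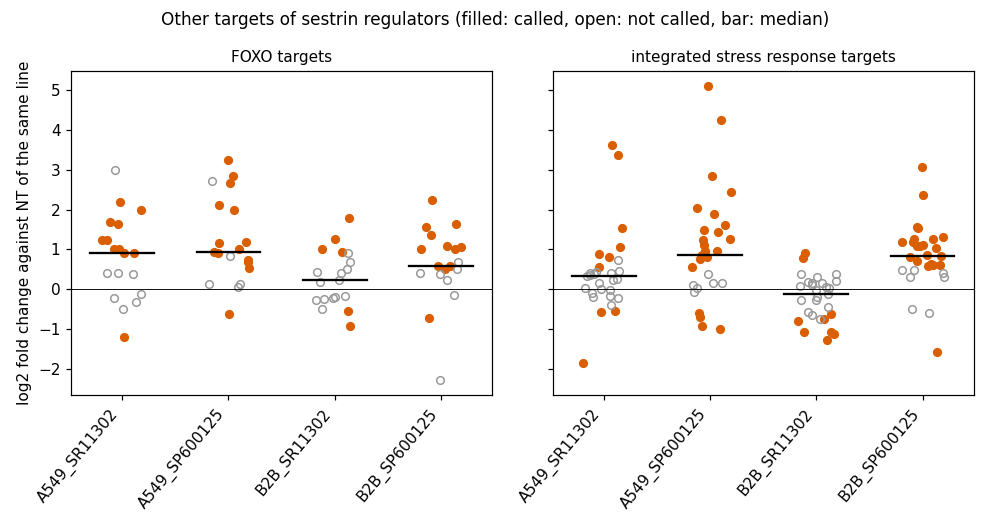
Log2 fold change against the untreated libraries of the same line for the tested targets of FOXO (19) and the integrated stress response (29), sestrins left out; filled points were called, open points were not, and bars are medians. In B2B_SR11302 the medians lie at 0.23 and -0.11, and in the other 3 groups between 0.34 and 0.94.

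The genes through which sestrins reach mTORC1 are given as counts beside the shares of all genes called, 27.8% (SR11302) and 48.8% (SP600125) in A549 and 22.5% and 43.8% in B2B, higher and lower together. None of the 5 GATOR2 subunits, the direct partners of the sestrins, was called with SR11302 in either line. With SP600125, SEH1L fell in both lines (77.4 to 51.4 CPM in A549 and 77.6 to 54.4 CPM in B2B) and WDR24 fell in A549 (17.6 to 9.92 CPM). Of 7 subunits of GATOR1 and its anchor KICSTOR, 3 were lower with SR11302 in A549, 1 higher and 5 lower with SP600125 in A549, none called with SR11302 in B2B, and 1 higher and 3 lower with SP600125 in B2B. The member that rose was C12orf66 (KICS2), from 16.9 to 36.6 CPM in A549 and from 3.79 to 8.53 CPM in B2B. Among 12 Rag GTPases and their regulators, 3 were higher and none lower with SR11302 in each line, and 5 higher and 1 lower in A549 and 3 higher and 1 lower in B2B with SP600125. RRAGD, a Rag GTPase, rose in B2B from 0.715 to 6.19 CPM with SR11302 and 5.02 CPM with SP600125, and, as for SESN3, A549_NT was higher (3.32 CPM) than B2B_NT. In A549 RRAGD was at 7.19 CPM with SR11302 but at 3.65 CPM with SP600125, near its control, unlike SESN3.

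Of 14 genes for the mTOR complexes and the TSC brake, 3 were higher and 1 lower with SR11302 and 6 higher and 4 lower with SP600125 in A549, and 2 and 1, and 3 and 2, in B2B. Several of these counts, and of those that follow, lie near the shares over all genes (14.8% higher and 13% lower with SR11302 and 23.9% and 25% with SP600125 in A549, 11.4% and 11.1% and 21.2% and 22.6% in B2B), and nothing is read from them about the lists. DDIT4 (REDD1), another stress-induced restraint on mTORC1, rose from 172 to 423 CPM in A549 and from 24.6 to 108 CPM in B2B with SP600125, the inhibitor under which SESN1 and SESN2 were highest in each line. RHEB, the GTPase that activates mTORC1, fell with SR11302 in A549 (101 to 64.2 CPM) and in B2B (98.5 to 63.5 CPM). Of 7 other amino acid sensors, 1 was higher and 2 lower with SR11302 and 3 higher and 2 lower with SP600125 in A549, and none was called with SR11302 and 2 were lower with SP600125 in B2B. Of 8 AMPK subunits and upstream kinases, 2 were higher with SR11302 and 4 with SP600125 in A549, and 1 with each inhibitor in B2B. PRKAB1 was among them in all 4 comparisons, from 26.4 to 44 and 51.3 CPM in A549 and from 24.3 to 35.4 and 63.3 CPM in B2B (SR11302, then SP600125). In these 4 comparisons PRKAG2 alone was called lower, in B2B with SP600125 (79.8 to 55.8 CPM). Of 14 genes of the redox arm, 1 was higher with SR11302 and 4 were higher and 1 lower with SP600125 in A549. In B2B, 5 were higher with SR11302 and 3 higher and 1 lower with SP600125. SQSTM1, the adaptor with which sestrins promote KEAP1 removal, rose in B2B from 204 to 302 CPM with SR11302 and to 435 CPM with SP600125. It also rose in A549 with SR11302, from 994 to 1434 CPM. NFE2L2, the gene of NRF2, rose with SP600125 from 148 to 294 CPM in A549 and from 118 to 189 CPM in B2B.

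Between the untreated lines, 5 of the 19 FOXO targets were called higher and 11 lower in A549, and 12 of 29 stress response targets higher and 6 lower, against 30.4% and 26.5% of all genes. In the direct comparison of the inhibitors in A549, 9 FOXO targets were higher and 1 lower with SP600125, against 16.6% and 20.5% of all genes.

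Over the 12 libraries, log2 CPM of SESN1 and SESN2 had a Pearson r of 0.90 (Spearman rho 0.90), SESN1 and SESN3 one of 0.60 (0.52), and SESN2 and SESN3 one of 0.34 (0.35). These are descriptions: the points fall in 6 pairs of libraries and share treatment, line and depth. By the same measure, the genes most like SESN1 were CTR9 (r = 0.997), a subunit of the PAF1 elongation complex, CCNY, ZNF419, RGMA and COG5 (0.97 to 0.98). Those most like SESN2 were ZNF2 (0.97), ZNF268, WDR48, ZNF512 and BMF, a pro-apoptotic BCL2-family gene (all 0.96). Those most like SESN3 were RBM43 (0.97), BEX2, GUCY1B3, CCDC69 and ANKRD6 (0.95 to 0.96). None of these 15 genes belongs to the regulator or pathway lists. RBM43 ranged from 4.68 to 25.6 CPM over the libraries, less than SESN3 did from 0.383 to 69.4 CPM.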

How the data were processed

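Poly(A)-selected RNA from A549 and B2B cells was sequenced by the authors, aligned to hg38 with STAR 2.7.10a and tallied by gene symbol with HTSeq 1.99.2. The authors deposited raw counts, whole reads that were not normalized. Annotation, strand setting and read length are not given in the sources read. Groups followed the sample labels. Reads in no annotated gene (14.6 to 25.9%) did not enter library sizes. Nor did reads aligned to several places (14.9 to 24.7%) or ambiguous between genes (1.19 to 2.03%). All 12 libraries were fitted in 1 model of 6 groups in edgeR 4.0.16 under R 4.3.3, using TMM normalization, filterByExpr, the quasi-likelihood F test with 6 residual degrees of freedom and Benjamini-Hochberg adjustment over all 16373 genes tested. Genes were called where the adjusted p was under 0.05 and the log2 fold change was 0.5 or more in size, the fold minimum of the study. Log2 CPM used a prior count of 1. A standard error is the log2 fold change divided by the root of its F statistic. The code was tested on simulated counts. Lengths and positions came from GENCODE v44, and upstream sequences from RefSeq.

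The members, gene lists and tests were chosen with earlier results of these data known. Named genes were the sestrins, their regulators, up to 4 called members of each list per comparison with the largest change (a selection of these is printed), and the 5 genes most correlated with each sestrin. Some regulators, list members, lists and motifs are not reported here. The test had also been planned for the untreated lines, for SESN3 in B2B with SP600125 and for SESN1 and SESN2 between the inhibitors in A549. Libraries used in the choice enter these comparisons, and the p-values of the sestrins are not given for them. Of 157 list entries, 156 matched, 9 by an older symbol. The alternatives were RLE or no composition scaling, DESeq2 1.42.0, other filters, each library left out, both second untreated libraries left out, only the groups compared, and a replicate block. No duplicate libraries were found. Depth limits precision most for SESN3 in B2B_NT, and intervals on counts cover counting error only.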

Additional observations from a re-analysis of the deposited data

Results flagged for a closer look

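SESN2 under SR11302 drew attention because both A549 libraries lay above both A549_NT libraries while both B2B libraries lay below both B2B_NT libraries. The share of all genes that part in this way was not counted. The B2B value was small, -0.19 ± 0.14 on the log2 scale, and with library size as the only scaling B2B_SR11302 replicate 2, at 18.5 CPM, lay above B2B_NT replicate 1, at 18.3 CPM, so a fall in B2B was not established. The effect in A549 exceeded that in B2B by 1.71 on the log2 scale. The difference was not tested, since SESN2 was among the genes chosen for its height in A549.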

How the results depend on the processing

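All 177 alternative values for the 9 sestrin differences with a planned test kept their direction. Calls are named here only where a p-value is given in the Results. The lower level of SESN1 in A549_NT than in B2B_NT ranged from -0.63 to -0.43 when a library was left out. It was smallest in size at -0.43 (without A549_NT replicate 1) and -0.45 (without B2B_NT replicate 1). SESN3 in A549_SP600125 against A549_SR11302 ranged from -1.32 to -0.20 when a library was left out, with the call lost without A549_SR11302 replicate 2, A549_SP600125 replicate 1 or A549_SP600125 replicate 2. It was -0.87 (adjusted p = 0.0653, edgeR) with only these groups in the fit, where fewer libraries estimate the spread. Of 236 alternative values for the 12 differences described without a test, 3 reversed, all of them SESN1 in B2B_SR11302 against B2B_NT: 0.0016 with library size only, 0.0084 without B2B_NT replicate 1 and 0.057 without B2B_SR11302 replicate 2, in a range from -0.23 to 0.057 when a library was left out. Replicate numbers did not pair the libraries (1 of 15 correlations over 0.1, range -0.21 to 0.20). With the replicate block, all 9 differences kept their direction. SESN3 between the inhibitors in A549 was -0.84 and stayed called, and SESN1 between the untreated lines was -0.52. Where a library was left out, the lone library of its group was assumed to vary like the others. With library size only, the median of all genes shifted to 0.14 and 0.10 in A549 with SR11302 and SP600125 and to 0.15 in B2B with SP600125. Over all genes, the calls in B2B with SR11302 (1863 higher, 1814 lower) became 1078 and 994 without both second untreated libraries. With 1 CPM required in all 12 libraries, which left 11149 genes, they became 1163 and 1089, those between the untreated lines 3087 and 2795, those in A549 with SR11302 1394 and 1324, and those higher in B2B with SP600125 2269. Depth limits SESN3 in B2B_NT most, at 8 and 12 reads.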
